A study of Mus musculus with 4 samples.

Results

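The Olfr1361 neurons are the mature olfactory sensory neurons (OSNs) of the mouse main olfactory epithelium to which the authors gave the odorant receptor (OR) Olfr1361 as their identity. They numbered 52 of the 9791 mature neurons with a receptor identity, 6 in mouse 1, 11 in mouse 2, 15 in mouse 3 and 20 in mouse 4. The cells came from the dissociated main olfactory epithelium of 4 male C57BL/6 mice aged 8 weeks and not actively exposed to odorants, were sorted as live nucleated cells, and were profiled by droplet-based 3′ RNA-seq with 1 library per mouse. Each transcript molecule carried a unique molecular identifier (UMI), so that its copies were counted once. The libraries held from 23157467 to 32382702 UMIs and the mice, not the neurons, were the replicates (n = 4). The p-values rest on how the difference between 2 groups of neurons varied over these mice. For genes, that spread was estimated in part from the other genes tested.

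A mature OSN expresses 1 OR gene, which decides the odorants it responds to and takes part in guiding its axon to particular glomeruli of the olfactory bulb. Binding of an odorant activates the G protein subunit encoded by Gnal, then the adenylyl cyclase encoded by Adcy3, and the cyclic AMP made by it opens a channel whose main subunit is Cnga2. ORs fall into class I, the smaller and older group, and class II, and neurons that express a given OR lie within a zone of the epithelium, dorsal neurons being known for Nqo1 and ventral ones for Nfix. Levels of adhesion and guidance proteins such as Kirrel2, and of the calcium-binding protein S100a5, are known to follow the activity of the neuron.

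Olfr1361 (ENSMUSG00000049737) is a class II gene on the minus strand of chromosome 13, at 21656880 to 21663386 of GRCm38. Its coding sequence lies in a single exon, from 21658371 to 21659321, and encodes 317 residues. Among 1163 other receptor proteins translated from the annotation, the most similar was Olfr317, on chromosome 11, at 71.2% identity, against a median of 42.0% over all of them. No other annotated receptor protein was close to identical to it.

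The population was the eighth largest of 798 receptor populations and the largest of those that lay mostly in the Dorsal cluster of the deposited clustering, which had been computed without OR genes. Its share of the neurons with an identity was 0.223% in mouse 1 (exact 95% binomial interval 0.0819 to 0.485), 0.470% in mouse 2 (0.235 to 0.839), 0.853% in mouse 3 (0.478 to 1.40) and 0.667% in mouse 4 (0.408 to 1.03), with a mean of 0.553% ± 0.270 (SD, n = 4). These intervals cover counting error only, and the intervals of mouse 1 and mouse 3 overlapped only between 0.478 and 0.485.

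Of the 52 neurons, 46 (88.5%) lay in the Dorsal cluster and 6 (11.5%) in the Ventral cluster, the latter with 1, 1, 2 and 2 neurons in mice 1 to 4. The median over the 53 populations of 10 or more neurons that lay mostly in the Dorsal cluster was 80%. Summed over the neurons, Nqo1, a dorsal enzyme, stood at 33.7 UMIs per 10000 UMIs of genes other than receptors in the 46 Dorsal-cluster members and at 4.78 (9 UMIs) in the 6 Ventral-cluster members. Nfix, a ventral transcription factor, stood at 0.145 and 1.59 (3 UMIs) in the same neurons, against 5.54 in the other neurons of the Ventral cluster. The 6 neurons therefore lay between the levels of the clusters for Nqo1, whose level in the rest of the Ventral cluster was 0.472. Because the clusters were made from such genes, these levels describe the members and were not tested.

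The label of a mature neuron was checked against its markers. Omp, the olfactory marker protein, was at 53.6, 57.8, 62.6 and 71.3 UMIs per 10000 in the members of mice 1 to 4, and at 61.8, 67.8, 69.7 and 70.2 in the other Dorsal-cluster neurons. Every member had at least 1 UMI of Omp, Gng13, Stoml3 and Gnal. Gap43, a growth cone protein of immature neurons, had 1 UMI in the 52 neurons, Gng8 had 1 and Dpysl3 had 0. Other immature markers were present: Stmn2 had 66 UMIs, in 67.3% of the members and 79.7% of the comparison neurons. Hdac2 had 11 UMIs, in 21.2% and 23.1%. All listed immature neuron markers, Stmn4 among them, summed to 44.3 to 54.6 UMIs per 10000 per mouse in the members. In the comparison neurons they summed to 42.3 to 44.3, so the list was not lower in the members. The summed level of the sustentacular markers was 0.316 to 0.732 UMIs per 10000 per mouse in the members and 0.272 to 0.554 in the comparison neurons, with 10 of 14 listed genes at 0 in the members. For the microvillar markers it was 0.105 to 0.439 and 0.462 to 0.503 (11 of 13 at 0), for basal cell markers 0 to 0.403 and 0.0618 to 0.131 (12 of 13 at 0), for gland markers 0 to 0.105 and 0.0206 to 0.0846 (11 of 12 at 0) and for immune markers 0 to 0.632 and 0.231 to 0.638 (11 of 16 at 0). Respiratory and ciliated cell markers summed to 2.42 to 4.84 in the members and 2.65 to 3.27 in the comparison (7 of 10 at 0), blood markers to 3.23 to 8.93 and 5.35 to 6.31 (1 of 8 at 0), and endothelial and stromal markers to 0 to 0.263 and 0.0342 to 0.0923 (12 of 13 at 0).

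The receptor itself was low in these neurons. The median number of Olfr1361 UMIs per neuron was 15, 11, 18 and 14 in mice 1 to 4, where the other Dorsal-cluster neurons had medians of 44, 35, 48.5 and 32 UMIs of their own receptor. Per 10000 UMIs of the neuron the medians were 30.2, 34.8, 28.9 and 32.8 in the members and 81.4, 92.3, 81.8 and 86.9 in the comparison neurons. The medians of the members lay below those of the comparison in each mouse and were close to each other between mice. Among the 353 populations of 10 or more neurons, 27 had a lower median level of their own receptor than the 31.0 of Olfr1361, and among the 53 of the Dorsal cluster 3 did. The identity was called from this level, which is therefore a description. The member with the lowest level had 12.0 per 10000 (5 UMIs), and 1 further mature neuron had Olfr1361 as its highest receptor but lay below the limit of the authors, with 3 UMIs or 8.19 per 10000.

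**Figure D1:**
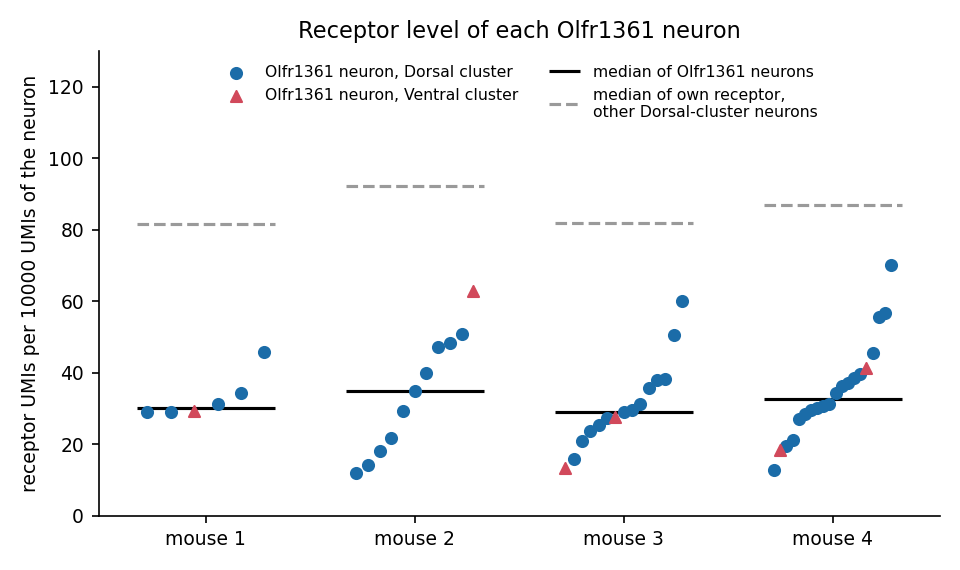
UMIs of Olfr1361 per 10000 UMIs of the neuron (vertical axis) in each of the 52 Olfr1361 neurons, by mouse, ordered by level within a mouse. Circles are neurons of the Dorsal cluster, triangles those of the Ventral cluster, black lines the medians of the members and dashed lines the medians that the other Dorsal-cluster neurons had for their own receptor, from 81.4 to 92.3. Every member lay below the dashed line of its mouse.

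Olfr1361 was rarely found outside its own neurons. Of 9739 mature neurons with another identity, 3 (0.0308%) had a UMI of it, with at most 5 in a neuron, and of 344 neurons with several receptors above the limit 3 did, with at most 13. It had 0 UMIs in 1768 microvillar cells of the Mv2 type, which allows a share of up to 0.170% of cells with a UMI, and in 336 sustentacular cells, which allows up to 0.893%. Among precursors and immature neurons, 1 of 284 immediate neuronal precursors had 1 UMI and 1 of 866 immature neurons of the cluster labelled iOSN1 had 16, while 0 of 1006 cells of the cluster labelled iOSN2 and 0 of 202 globose basal cells had one, which allows shares of up to 0.298% and 1.49%.

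Few Olfr1361 neurons had UMIs of a further receptor. Identities were called from receptor levels, and neurons with several receptors above the limit of the authors were left out. The shares below are therefore mainly a description, also where a test is given. Without thinning, 0 of 6, 3 of 11, 1 of 15 and 0 of 20 members had one in mice 1 to 4, 4 of 52 in all or 7.69% (exact 95% interval 2.14 to 18.5), where 25.1% of the 1436 other Dorsal-cluster neurons did. The further receptors were Olfr1307 and Olfr1206 of chromosome 2 and Olfr303 and Olfr506 of chromosome 7, with 1 UMI each. After every neuron was thinned to 3000 UMIs, which 37 of the 52 members and 1201 of the 1436 others reached, the shares were 0%, 16.7%, 7.14% and 0% in the members and 15.7%, 21.3%, 21.3% and 11.8% in the comparison neurons. The share was lower in the members in 4 of 4 mice, by 11.6 ± 4.89 percentage points (SD, n = 4; exact two-sided sign-flip test p = 0.125, the smallest that 4 mice can give). Mv2 cells, which should lack receptors, had a receptor UMI in 16.8% ± 3.39 of cells at the same thinned depth, about the 17.1% of the comparison neurons, so that neither share is read as expression of a further receptor. At 2 or more UMIs of the further receptor, 0 of 52 members and 2.09% of the comparison neurons had one, and 0 of 52 has an exact 95% interval of 0 to 6.85%. Over the 353 populations, 10 had a lower unthinned share than Olfr1361 and the median was 27.8%, and among the 28 with a receptor level no higher than that of Olfr1361, 2 had a lower share.

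Depth and RNA quality of the members were set beside those of their cluster. The median UMI count per neuron was 4054, 3162, 6075 and 3452 in the members of mice 1 to 4 and 5239, 4207, 5970 and 3644.5 in the other Dorsal-cluster neurons. The mean difference of the log2 medians was -0.21 ± 0.22 (SD, n = 4; exact two-sided sign-flip test p = 0.250). The median percent of mitochondrial UMIs was 0.468, 1.68, 1.03 and 1.11 in the members and 0.823, 1.21, 1.03 and 1.14 in the comparison (mean difference 0.0183 ± 0.338, SD, n = 4; exact two-sided sign-flip test p = 1). UMI counts were lower in the members in 3 of 4 mice. The counts of called genes were repeated with the neurons of 3000 or more UMIs thinned to that depth, and with the deepest neurons left out.

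Genes other than receptors were then compared between the 52 members and the 1436 other neurons of the Dorsal cluster, of which 481 expressed a class I OR and 934 a class II OR, on UMI sums per mouse. The sums of the members held 24805, 38080, 94979 and 68315 UMIs in mice 1 to 4. The members had higher levels of Stmn4, Mfge8, Mef2a, Jun and Jund and lower levels of Kirrel2, Lrrc3b, Ptn and Pcp4l1 than their cluster. Of 3919 genes tested with the quasi-likelihood test of edgeR and the mouse as a block, 51 (1.3%) had an adjusted p under 0.05, 22 higher (0.561%) and 29 lower (0.74%), and 48 of the 51 had the same direction in 4 of 4 mice. DESeq2 called 33, with 19 higher and 14 lower. Of 7406 genes tested with filterByExpr in edgeR, 15 were higher and 35 lower. With no filter on low counts, 10 were higher and 91 lower of 18308 tested. Without mouse 4, which gave the most members, edgeR called 20 of 2924 genes tested. Without mouse 2 it called 30 of 3353 and without mouse 3 it called 31 of 2455.

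**Figure D2:**
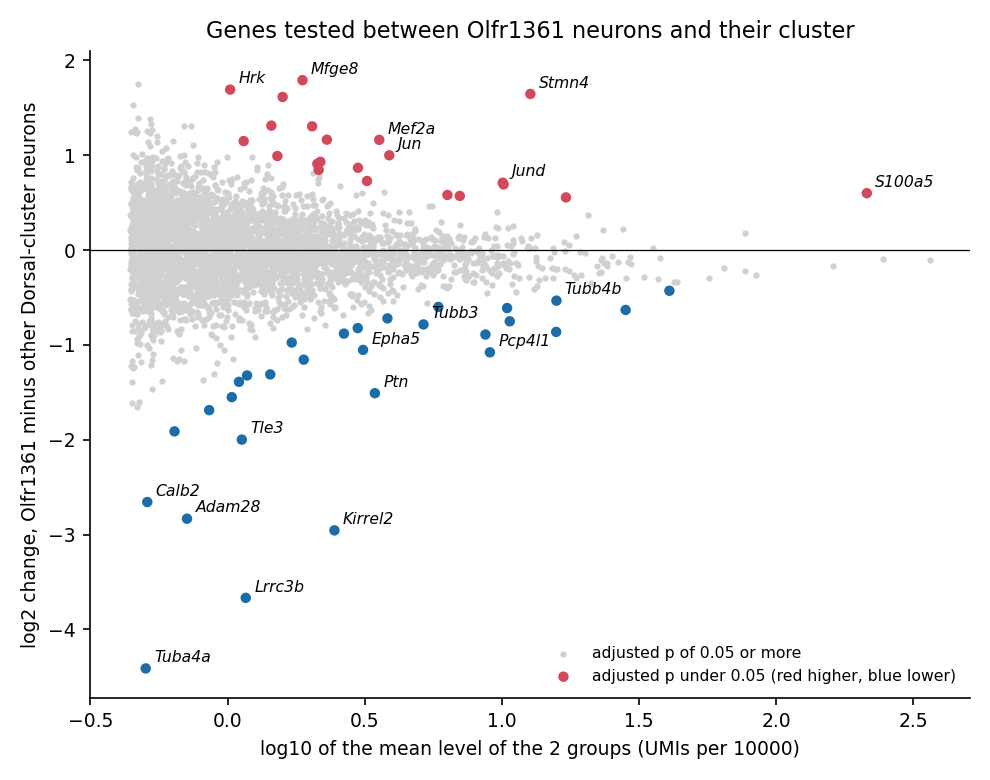
Log2 change of each of the 3919 genes tested between the Olfr1361 neurons and the other Dorsal-cluster neurons (vertical axis, positive where higher in Olfr1361 neurons) against the log10 of the mean level of both groups in UMIs per 10000 (horizontal axis). Grey points have an adjusted p of 0.05 or more, red points are the 22 genes called higher and blue points the 29 called lower. Stmn4 and S100a5 stand apart on the right among the higher genes, and Kirrel2, Lrrc3b and Tuba4a at the bottom.

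Stmn4, which encodes a microtubule regulator of the stathmin family, had the smallest p of all genes. It stood at 16.5, 20.7, 15.2 and 25.5 UMIs per 10000 in the members of mice 1 to 4 and at 5.63, 5.69, 5.83 and 6.58 in the other Dorsal-cluster neurons. The lowest mouse of the members lay above the highest of the comparison, as it did for 4.21% of the genes tested. The log2 change was 1.65 ± 0.11 (SE; edgeR adjusted p = 8.0e-15). Of the members, 98.1% had a UMI of Stmn4, against 73.3% of the comparison neurons. Its level in the 6 Ventral-cluster members, 25.5 (48 UMIs), was above that in the 46 others, 18.8. Summed over the mice, Olfr1361 had the highest level of Stmn4 among the 353 populations, 19.4 against 17.7 in the next population, Olfr1254, and a median of 5.77.

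Of the other genes with the largest changes upward, Mfge8 encodes a secreted glycoprotein that bridges exposed phosphatidylserine and phagocytes. Its level was 4.43, 2.89, 2.84 and 1.90 UMIs per 10000 in the members of mice 1 to 4 and 0.536, 0.754, 0.919 and 0.728 in the comparison neurons (log2 change 1.79 ± 0.25, edgeR adjusted p = 5.9e-06). The members exceeded the comparison in every mouse and the groups did not overlap. Hrk, which encodes a BH3-only activator of cell death, averaged 1.58 ± 0.643 in the members and 0.462 ± 0.104 in the comparison (SD, n = 4; log2 change 1.69 ± 0.33, edgeR adjusted p = 0.00086). No population of the Dorsal cluster had a higher summed level of Mfge8 or Hrk than Olfr1361.

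Mef2a encodes a transcription factor that responds to neuronal activity. It stood at 4.03, 8.93, 3.79 and 3.81 UMIs per 10000 in the members and at 1.72, 2.01, 2.25 and 2.05 in the comparison (log2 change 1.16 ± 0.20, edgeR adjusted p = 0.00016). Mouse 2 was far above the other 3 mice, and all 4 lay above the comparison. Without mouse 2 the log2 change was 0.85 (edgeR adjusted p = 0.0316). Others of the largest changes upward were Pcdh9, a protocadherin (1.31 ± 0.29), Ptms, which encodes parathymosin (1.16 ± 0.21), Pappa, a protease of insulin-like growth factor binding proteins (1.15 ± 0.29), Jun (1.00 ± 0.17), Ide, the insulin-degrading enzyme (0.99 ± 0.27), and the transcripts 9530034E10Rik (1.61 ± 0.28) and A430035B10Rik (0.93 ± 0.21), which the annotation does not class as coding. Pappa and Ide (edgeR adjusted p = 0.026 and 0.047) missed the threshold whenever 1 mouse was left out, at adjusted p of 0.0541 to 0.350 and 0.0815 to 0.227. Hrk missed it without mouse 4 (adjusted p = 0.295), Ptms without mouse 3 (0.204), Pcdh9 without mouse 2 (0.103) or mouse 4 (0.482), and A430035B10Rik without mouse 2, mouse 3 or mouse 4 (0.0691, 0.0966 and 0.0666), all in edgeR. After thinning every neuron to the same depth, Hrk, 9530034E10Rik, Pcdh9, Pappa, Ide and A430035B10Rik all missed it (adjusted p = 0.146, 0.0562, 0.274, 0.390, 0.170 and 0.110) at log2 changes of 1.68, 1.62, 1.23, 1.04, 1.28 and 1.05. DESeq2 did not call Ide (adjusted p = 0.0568).

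The gene with the lowest p among those that fell was Kirrel2, which encodes a homophilic adhesion molecule of olfactory axons. The members had 0.806, 0.525, 0.842 and 0.293 UMIs per 10000 (14 UMIs in all), where the comparison had 3.35, 3.91, 5.62 and 4.29. The highest mouse of the members lay below the lowest of the comparison, as it did for 4.47% of the genes tested, and the log2 change was -2.96 ± 0.28 (edgeR adjusted p = 1.5e-10). A UMI of Kirrel2 was found in 19.2% of the members and in 72.9% of the comparison neurons. Each of the other 52 populations of the Dorsal cluster had a higher summed level, while over all 353 populations 20 had a lower one. Among the latter were populations of the dorsal cluster labelled Calb2+ D., some with high Stmn4 as well. Olfr611 and Olfr875 had Kirrel2 at 0 and Stmn4 at 17.0 and 16.4. Not all of that cluster did, since Olfr1177-ps had Kirrel2 at 2.68 and Stmn4 at 7.63. Low Kirrel2 with high Stmn4 was thus not particular to Olfr1361 among dorsal populations. Kirrel3, which is known to be expressed in a pattern complementary to that of Kirrel2, averaged 0.719 ± 0.188 in the members and 0.588 ± 0.0872 in the comparison and was not called (log2 change 0.23 ± 0.39, edgeR adjusted p = 0.91).

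Lrrc3b, which encodes a membrane protein with leucine-rich repeats, had 0.403, 0, 0.105 and 0.293 UMIs per 10000 in the members (4 UMIs) and 2.08, 1.85, 2.35 and 2.24 in the comparison (log2 change -3.67 ± 0.45, edgeR adjusted p = 2.9e-07). It too was lower in Olfr1361 than in each of the other 52 Dorsal-cluster populations, with 22 of all 353 lower. Tuba4a, an alpha tubulin, had 1 UMI in the members and 635 in the comparison, a ratio of levels of 0.0483 with an exact 95% counting interval of 0.00122 to 0.270 (edgeR adjusted p = 0.00028). Calb2, which encodes calretinin and marks a subset of OSNs, had 3 UMIs and 637, a ratio of 0.144 (0.0297 to 0.424, edgeR adjusted p = 0.0096). Low levels of Tuba4a and Calb2 were not particular to Olfr1361 within the cluster, since 13 and 16 of the other 52 populations had lower summed levels of them, and the same held for Adam28, a membrane metalloprotease with 4 UMIs in the members, with 18 lower. It also held for Pcp4l1, with 19 lower, and Tenm2, with 13 lower.

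Ptn, which encodes the secreted growth factor pleiotrophin, stood at 2.42, 1.58, 1.90 and 1.61 UMIs per 10000 in the members and at 5.05, 4.80, 4.82 and 5.38 in the comparison (log2 change -1.51 ± 0.20, edgeR adjusted p = 1.6e-06). The 4 mice of each group lay close together and far from the other group. Its level in the Ventral cluster as a whole, 2.00, was close to that of the members. The others of the 12 largest changes downward were Adam28 (-2.83 ± 0.51), Tle3, a Groucho corepressor (-2.0 ± 0.36), Syt4, a synaptotagmin (-1.69 ± 0.45), Tenm2, a teneurin adhesion molecule (-1.55 ± 0.39), Tmem64 (-1.32 ± 0.32), B230118H07Rik (-1.39 ± 0.33) and 2010204K13Rik (-1.91 ± 0.48). In edgeR, Syt4 missed the threshold whenever 1 mouse was left out (adjusted p = 0.0540 to 0.602), with a log2 change of -0.77 without mouse 3, as did Tmem64 and B230118H07Rik without mouse 2, mouse 3 or mouse 4 (0.0612 to 0.198 and 0.0540 to 0.270), Tenm2 without mouse 1, mouse 2 or mouse 4 (0.0746 to 0.557), Tle3 without mouse 4 (0.0808) and 2010204K13Rik without mouse 2 (0.130). After thinning, Syt4, Tenm2, B230118H07Rik and Tmem64 missed it too (0.552, 0.320, 0.726 and 0.122), at log2 changes of -1.21, -1.50, -0.58 and -1.74. DESeq2 did not call Tmem64, B230118H07Rik or Tenm2 (adjusted p = 0.181, 0.187 and 0.218). Against all other neurons with an identity, where 127 of 3969 genes were called (3.2%; 1.23% higher and 1.97% lower), Ptn and B230118H07Rik were not called (log2 changes -0.53 and -1.09, edgeR adjusted p = 0.271 and 0.0752).

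**Figure D3:**
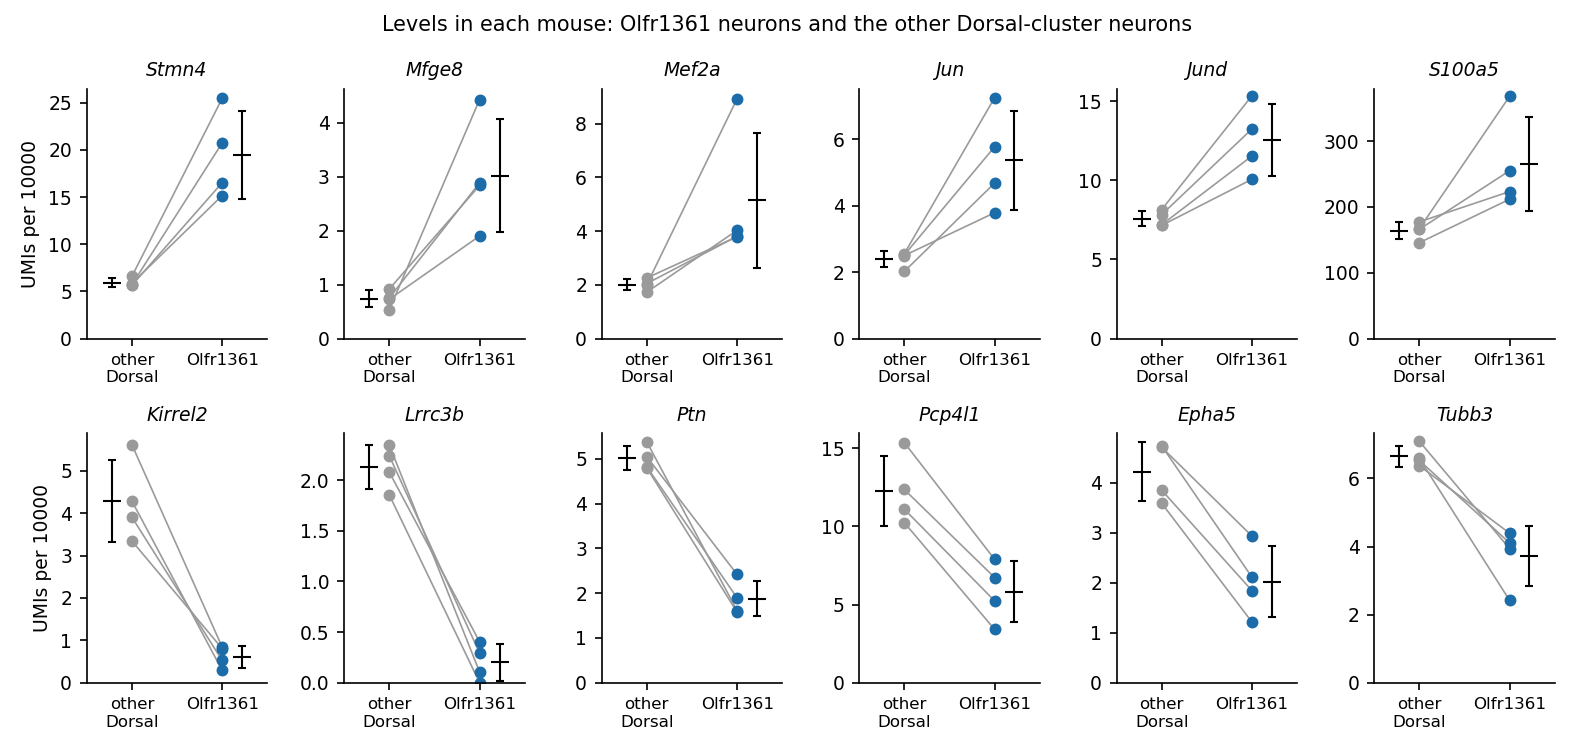
Levels of 12 genes in UMIs per 10000 UMIs of genes other than receptors (vertical axes, from 0), in the other Dorsal-cluster neurons (grey) and the Olfr1361 neurons (blue) of each mouse, joined by a line for each of the 4 mice. Bars beside the points give the mean and SD over mice. The lines rise for the 6 genes of the upper row and fall for the 6 of the lower row in every mouse, and the groups do not overlap in any panel.

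Genes of known neuronal function were read by list. Over all 3919 genes tested, 0.561% were called higher and 0.74% lower, and the counts of each list below stand beside these shares. No list was tested as a set. In the olfactory transduction list 0 of 17 tested genes were called in either direction, at a median log2 change of -0.19. The median of all 3919 genes tested was -0.01. A log2 change above 0 was found in 1 of the 17, against 1901 of the 3919. The list summed to 574 to 663 UMIs per 10000 per mouse in the members and 673 to 679 in the comparison. The shift of the list was not tested. Gnal averaged 28.2 ± 6.48 in the members and 29.3 ± 2.02 in the comparison, Adcy3 10.3 ± 3.01 and 10.7 ± 1.37, and Cnga2 6.71 ± 0.675 and 7.35 ± 0.353 UMIs per 10000 (SD, n = 4). The nearest to the threshold was Gnb1, a G protein beta subunit, at 39.3 ± 2.22 and 47.7 ± 1.88 (edgeR adjusted p = 0.096).

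Of 8 tested immediate early and activity genes, 2 rose and 0 fell, at a median log2 change of -0.04. Jun, which encodes a component of the AP-1 transcription factor, stood at 7.26, 5.78, 3.79 and 4.68 UMIs per 10000 in the members and at 2.55, 2.52, 2.50 and 2.02 in the comparison (edgeR adjusted p = 0.00022). Jund, another AP-1 component, stood at 10.1, 11.6, 13.3 and 15.4 and at 7.16, 7.20, 7.84 and 8.16 (log2 change 0.71 ± 0.12, edgeR adjusted p = 0.00012). In neither gene did the groups overlap, but Jun missed the threshold after thinning (log2 change 0.80, edgeR adjusted p = 0.146) and Jund with no filter on low counts (0.45, adjusted p = 0.175). No other Dorsal-cluster population had a higher summed level of Jun or Jund. Fos, an activity-induced partner of Jun, was at 1.5 ± 0.795 in the members and 1.53 ± 0.256 in the comparison (log2 change -0.06 ± 0.27, edgeR adjusted p = 0.97).

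Of 6 tested calcium-binding proteins, S100a5 rose and Calb2 and Pcp4l1 fell, and the median log2 change was -0.37. S100a5 stood at 368, 212, 223 and 255 UMIs per 10000 in the members and at 167, 146, 177 and 166 in the comparison (log2 change 0.60 ± 0.10, edgeR adjusted p = 0.00022). All 4 mice of the members lay above those of the comparison, with mouse 1 the highest. The call was lost with filterByExpr (log2 change 0.50, edgeR adjusted p = 0.142) and with no filter on low counts (0.33, adjusted p = 0.266). Against all other neurons with an identity, S100a5 did not pass the test (log2 change 0.04, edgeR adjusted p = 0.937), and its summed level, 247, ranked 149 of the 353 populations. Pcp4l1, a small relative of a calmodulin-binding protein, stood at 5.24, 3.41, 7.90 and 6.73 and at 11.1, 10.2, 15.4 and 12.4 (log2 change -1.08 ± 0.14, edgeR adjusted p = 9.9e-07). It was at 7.04 in the 46 Dorsal-cluster members and at 0.532 (1 UMI) in the 6 Ventral-cluster members. A lower summed level of Pcp4l1 than in Olfr1361 was found in 19 of the other 52 Dorsal-cluster populations.

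Of 15 tested cell adhesion genes 2 rose, Pcdh9 among them, and 2 fell, Kirrel2 and Tenm2, at a median log2 change of 0.23. Of 14 tested axon guidance genes 1 fell and 0 rose, at a median of -0.23. That gene was Epha5, a receptor of ephrins, at 1.21, 1.84, 2.11 and 2.93 in the members and 3.58, 3.85, 4.73 and 4.71 in the comparison (log2 change -1.05 ± 0.20, edgeR adjusted p = 0.00049). Epha5 missed the threshold without mouse 3 (log2 change -0.91, edgeR adjusted p = 0.0609) and after thinning (-0.82, adjusted p = 0.164). Efna5, a ligand of that receptor, averaged 0.693 ± 0.471 and 1.16 ± 0.137 and was not called (edgeR adjusted p = 0.71).

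Of 10 tested immature neuron markers, Stmn4 rose and Stmn2 and Tubb3 fell, at a median log2 change of -0.26. All 3 encode proteins of microtubules or their regulators. In iOSN1 cells Stmn2 stood at 41.1 UMIs per 10000 but Stmn4 at 3.83, below the 5.94 of the comparison neurons. Stmn4 was thus on the list without marking iOSN1 cells in these data. Tubb3, the neuronal beta tubulin, stood at 2.42, 3.94, 4.11 and 4.39 UMIs per 10000 in the members and at 6.59, 7.09, 6.53 and 6.37 in the comparison (log2 change -0.78 ± 0.16, edgeR adjusted p = 0.0021). Stmn2 averaged 2.85 ± 0.328 and 4.80 ± 0.578 (log2 change -0.72 ± 0.18, edgeR adjusted p = 0.021) and missed the threshold whenever 1 mouse was left out (0.0640 to 0.353) and after thinning (0.167). DESeq2 did not call Stmn2 (adjusted p = 0.177), nor did edgeR against all other neurons with an identity, where the log2 change was -0.37 (0.413). Of 33 tested cilia genes Tubb4b, a beta tubulin of cilia, fell (13 ± 2.40 against 18.6 ± 0.821, edgeR adjusted p = 0.0067; 0.0586 without mouse 2, 0.198 without mouse 4 and 0.146 after thinning) and 0 rose, at a median of -0.05.

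Of 7 tested position and subset markers 3 fell (Adam28, Calb2 and Ptn) and 0 rose, at a median of -1.51. Nqo1 averaged 29.9 ± 6.03 in the members and 25.2 ± 5.01 in the comparison (log2 change 0.22 ± 0.11, edgeR adjusted p = 0.57), and Acsm4, another dorsal gene, 5.41 ± 1.58 and 5.17 ± 0.317 (edgeR adjusted p = 0.99). Of 10 tested secreted signals Ptn fell and 0 rose (median -0.22), and of 21 neuronal transcription factors Mef2a rose and 0 fell (median 0.12). None of the 18 ion channels, 18 presynaptic and neuromodulator receptors and 21 receptor trafficking and folding genes was called (medians 0.04, 0.05 and -0.03). Nor was any of 75 nuclear oxidative phosphorylation genes and 9 mitochondrially encoded genes (medians -0.20 and -0.13). Over all genes tested 1.3% were called, so 0 calls in lists of this size say little. Of the 75, 5 had a log2 change above 0, against 1901 of all 3919 genes tested. Of 81 ribosomal protein genes Rplp2 fell (4.65 ± 0.649 against 7.09 ± 0.687, edgeR adjusted p = 0.021) and 0 rose, at a median of -0.04. Rplp2 missed the threshold whenever 1 mouse was left out (edgeR adjusted p = 0.0766 to 0.200) and after thinning (0.191), and DESeq2 did not call it (adjusted p = 0.170).

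The comparison neurons held both receptor classes, and Olfr1361 is a class II receptor. Against the 934 class II neurons of the Dorsal cluster alone, a comparison added after the data had been seen, 50 of 3941 genes were called (1.27%; 0.507% higher and 0.761% lower), 45 of which were among the 51. The log2 change of Stmn4 was then 1.71, of Kirrel2 -3.00, of Mef2a 1.12 and of S100a5 0.58, each called. Of the named genes, Pappa, Ide, Tenm2 and Stmn2 were not called in this comparison (edgeR adjusted p = 0.0874, 0.0698, 0.0581 and 0.102). With only the 46 members inside the cluster, 53 genes were called, 48 of them among the 51.

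The members were next compared directly with the 3 largest other populations of the Dorsal cluster, to set them beside populations of like size. These were Olfr1176 (49 neurons, class II), Olfr591 (41, class I) and Olfr655 (37, class I), and the comparisons share the Olfr1361 sums. In edgeR, 71 of 3932 genes (1.81%) differed from Olfr1176, with 0.814% higher and 0.992% lower in Olfr1361. Against Olfr591 it was 55 of 3931 (1.4%), with 0.712% higher and 0.687% lower, and against Olfr655 it was 31 of 3869 (0.801%), with 0.388% higher and 0.414% lower, or 48 without the mouse as a replicate block. DESeq2 called 12, 16 and 4. Against its own cluster in the same way, Olfr1176 had 97 called of 3859 genes tested, Olfr591 had 40 of 3250 and Olfr655 had 12 of 3323.

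Stmn4 averaged 5.59 ± 2.18 UMIs per 10000 in Olfr1176 neurons, 4.09 ± 2.74 in Olfr591 neurons and 3.49 ± 1.43 in Olfr655 neurons (SD, n = 4), against 19.5 ± 4.65 in Olfr1361 neurons. The log2 differences were 1.78 ± 0.18, 2.13 ± 0.21 and 2.26 ± 0.24 (edgeR adjusted p = 9.95e-20, 3.2e-21 and 2.3e-17). Kirrel2 averaged 3.96 ± 0.850, 4.26 ± 2.45 and 3.66 ± 0.992 in the 3 populations and 0.617 ± 0.258 in Olfr1361 (log2 differences -2.69 ± 0.37, -2.94 ± 0.40 and -2.50 ± 0.43, edgeR adjusted p = 5.2e-10, 1.7e-10 and 5.9e-06). Mef2a and Tubb3 likewise differed from each of the 3 populations, Mef2a by 1.07 ± 0.26, 2.15 ± 0.34 and 1.52 ± 0.33. Jun did not pass the test against any of them, at log2 differences of 0.79 ± 0.25, 0.84 ± 0.27 and 0.64 ± 0.29 (edgeR adjusted p = 0.090, 0.13 and 0.54). Jund passed against Olfr1176 and Olfr591 and not against Olfr655 (0.68, edgeR adjusted p = 0.178). Mfge8 did not pass against Olfr1176 (0.85 ± 0.33, edgeR adjusted p = 0.268), nor Hrk against Olfr655 (1.84 ± 0.61, edgeR adjusted p = 0.178). Ptn and Pcp4l1 depended on the population set against Olfr1361. Ptn was lower than in Olfr1176 (-1.22 ± 0.29, edgeR adjusted p = 0.0035) and stood at 1.29 ± 0.49 on the log2 scale relative to Olfr591 (edgeR adjusted p = 0.31), where it averaged 0.818 ± 0.678. Pcp4l1 passed the test against none of the 3 populations (0.57 ± 0.23, -0.14 ± 0.23 and -0.55 ± 0.24).

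Genes with large differences from single populations are given here as examples named after their values were seen. S100a5 averaged 265 ± 71.4 in Olfr1361 neurons and 39.1 ± 16.1 in Olfr1176 neurons (log2 difference 2.81 ± 0.16, edgeR adjusted p = 5.4e-63), and was also higher than in Olfr591 neurons, at 148 ± 15.2 (0.80 ± 0.14, edgeR adjusted p = 3.6e-06). Against Olfr655, at 167 ± 61.8, the difference of 0.72 ± 0.21 missed the threshold (edgeR adjusted p = 0.051). Calb2, with 3 UMIs in Olfr1361 neurons, had 168 in Olfr1176 neurons. Cadps2, which takes part in vesicle release, had 32 UMIs in Olfr1361 neurons and 0 in Olfr1176 neurons and was at least 10.8-fold higher in the former, taking 3 counts over the group as the floor. Bcl11b, a transcription factor linked to the choice between receptor classes, had 21 UMIs in Olfr1361 neurons and 0 in the class I Olfr591 neurons (at least 5.66-fold higher). Cd55, a complement regulator, had 1 UMI in Olfr1361 neurons, 176 in Olfr591 neurons and 78 in Olfr655 neurons. Cadps2, Bcl11b, Calb2 and Cd55 were at or near 0 in 1 population and passed the count filter through their level in the other. Their differences are therefore given as a description.

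Distances between neurons were measured on 15 principal components of the log-normalised counts without OR genes. The mean distance among the members divided by their mean distance to the other Dorsal-cluster neurons was 1.01, 0.750, 0.875 and 0.776 in mice 1 to 4, with a mean of 0.853 ± 0.119 (SD, n = 4). In mouse 1, with 6 members, the members were thus no closer to each other than to the rest of the cluster. The median of this ratio over the 53 Dorsal-cluster populations was 0.860 and 23 of them had a lower one, which places it near the middle of its cluster. Over all 353 populations, each set against its own cluster, the median was 0.796 and 250 had a lower ratio. The nearest neuron of the same mouse was another member for 0 of 6, 2 of 11, 5 of 15 and 4 of 20 members. Members made up 0.186%, 0.427%, 0.796% and 0.634% of the other neurons of those mice.

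By the distance between centroids, the nearest of 352 other populations were Olfr446 on chromosome 6 (31 neurons, distance 1.05), Olfr988 on chromosome 2 (13 neurons, 1.19), Olfr1408 on chromosome 1 (15 neurons, 1.21), Olfr24 on chromosome 9 (34 neurons, 1.23) and Olfr586 on chromosome 7 (31 neurons, 1.25), where the median distance was 4.3. All 5 lay mostly in the Dorsal cluster, and the first 4 are class II while Olfr586 is class I. The identities of their proteins to Olfr1361 were 45.1%, 41.5%, 40.3%, 44.9% and 28.4%, none far above the median of all receptors. Even in these populations the summed level of Stmn4 was 6.58, 8.58, 3.50, 8.25 and 9.25 UMIs per 10000, against 19.4 in Olfr1361. Kirrel2 was at 3.98, 2.64, 5.24, 3.71 and 2.48, against 0.619.

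The neurons of receptor genes beside Olfr1361 on chromosome 13 were mostly of other clusters. Of 12 other receptor genes within 1 Mb, 8 had a population of 3 or more neurons, of which 2 lay mostly in the Dorsal cluster and 6 in others. Olfr11, whose gene lies 14.4 kb away, had 20 neurons, 100% of them in the Ventral cluster. Olfr1359, 34.7 kb away on the other side, had 19 neurons, also 100% Ventral, and Olfr1368, 511 kb away, had 13, again 100% Ventral. Olfr1364, 75.1 kb away, had 45 neurons with 77.8% in the Ventral cluster. Olfr263 (9 neurons, 521 kb away) and Olfr1370 (7 neurons, 582 kb away) lay mostly in the Dlg2+ V. cluster. The populations of the Dorsal cluster were Olfr1362, 42.9 kb away, with 9 neurons and 77.8% in the cluster, and Olfr1366, 114 kb away, with 4 neurons and 100%.

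Nqo1 had 0 UMIs in the neurons of Olfr11, Olfr1359, Olfr1368, Olfr263 and Olfr1370 and 1 in those of Olfr1364, whereas it stood at 30.1 UMIs per 10000 in those of Olfr1362 and at 17.4 in those of Olfr1366, against 31.3 in Olfr1361. Olfr1362 has the protein most similar to Olfr1361 among these neighbours, at 70.5% identity, followed by Olfr1364 at 68.1%. The neurons of these 2 neighbours of nearly equal similarity lay mostly in different clusters. Over all receptors, Olfr317 and Olfr322 of chromosome 11 were still more similar, at 71.2% and 70.8%. Their most frequent clusters were dorsal ones, Calb2+ D. (83.3% of 12 neurons) and Dlg2+ D. (30% of 10). Nqo1 stood at 51.4 and 17.1 UMIs per 10000 in them. Kirrel2 was at 0 in Olfr317 neurons, below the 0.619 of Olfr1361, and at 11.6 in Olfr322 neurons. Stmn4 was at 7.74 and 5.79 in the same neurons. In Olfr1362 neurons Stmn4 stood at 4.52 (17 UMIs), Kirrel2 at 4.79 (18 UMIs) and Lrrc3b at 4.26 (16 UMIs), none at the level of Olfr1361. These sums over few neurons were not tested.

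**Figure D4:**
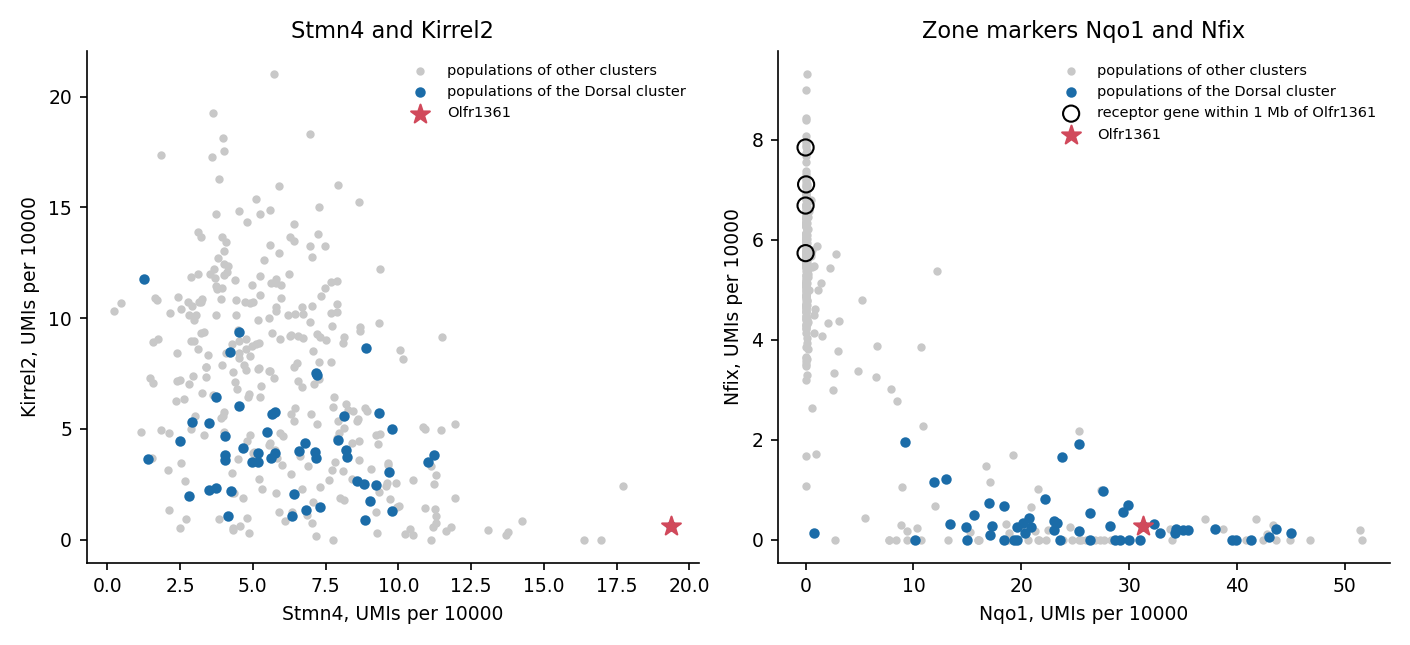
Summed levels in the 353 populations of 10 or more neurons, in UMIs per 10000, of Kirrel2 against Stmn4 (left) and of Nfix against Nqo1 (right). Blue points are populations mostly of the Dorsal cluster, grey points those of other clusters, the star is Olfr1361 and open circles in the right panel mark populations whose receptor gene lies within 1 Mb of it. Olfr1361 has the highest Stmn4 of all, 19.4, with Kirrel2 at 0.619, and lies among the Nqo1 populations while the circled ones have no or almost no Nqo1.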

How the data were processed

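Dissociated main olfactory epithelium of 4 mice was sequenced with 10x Genomics 3′ chemistry. The authors aligned reads to GRCm38 with Cell Ranger 6.0.1 and an annotation with redrawn 3′ ends of OR genes, and deposited raw UMI counts per gene and cell. They removed clusters of blood, immune and damaged cells, kept cells with at least 1000 genes and at most 10% of UMIs from mitochondria, integrated the mice in Seurat and clustered mature neurons without OR genes. Clusters and receptor identities were taken from the deposited cell table. A merged count table naming the same 21809 cells was not used. Members and gene lists were chosen with earlier results of these data known.

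UMIs were summed per mouse for the members and for the comparison neurons, without 1430 receptor genes. A gene was tested if the mean of its levels in both groups, times the summed UMIs of the members, was at least 10 counts. Entry thus depended in part on the level in the members themselves. The test was that of edgeR 4.0.16 (quasi-likelihood, TMM, Benjamini-Hochberg at 0.05). The mouse was a block because both sums come from 1 animal and 1 library (correlations of their deviations 0.214, 0.120, 0.0278 and 0.0487). DESeq2 1.42.0 was an alternative. Levels are UMIs per 10000 UMIs of genes other than receptors. On simulated counts for the comparison with the cluster (3881 genes), edgeR recovered 50 of 91 genes changed by 1 on the log2 scale and 82 of 85 changed by 2, and called 3 of 3705 unchanged genes. Single values were compared by an exact sign-flip test over the 4 mice.

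Genes were named by a rule, first the 12 largest called changes in each direction, then called list members. The first were chosen among genes with the same direction in 4 mice. Those genes also had at least 20 UMIs in the members, found or expected from the level of the cluster. Populations named were the 5 nearest and those of receptor genes within 1 Mb. Distances used the 2000 most variable genes, centred within each mouse. Gene positions and receptor proteins (global alignment in Biopython 1.88) came from GENCODE M21, also on GRCm38, matched by ID for 55130 of 55511 features. No doublet caller was run, and an alternative left out the 5% of neurons with the most UMIs. Libraries shared 4 to 14 barcode sequences per pair, 0 of them of members. Some genes that met the rule are not reported here.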

Additional observations from a re-analysis of the deposited data

Results flagged for a closer look

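In 70 groups of 4 values, 5 held a mouse farther from the others than 95% of such groups would by chance, which alone gives about 3.5. In the members, the level of Mef2a in mouse 2 was 8.93 UMIs per 10000 (34 UMIs), where the other mice had 3.79 to 4.03. Tmem64 in mouse 1 was at 0.403 (1 UMI), where the others had 0.732 to 0.788. Tuba4a was at 0.403 in mouse 1 (1 UMI) and at 0 in the other 3 mice. In the other Dorsal-cluster neurons, 9530034E10Rik was at 1.10 in mouse 4 and from 0.582 to 0.608 in the others, and Jun was at 2.02 in mouse 4 and from 2.50 to 2.55 in the others.

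The comparisons used mature neurons alone, and an immature neuron outside them carried the receptor. One iOSN1 cell of mouse 3 had 16 UMIs of Olfr1361 and no UMI of another receptor, among 8188 UMIs in all. It had 25 UMIs of Gap43, 21 of Gng8 and 28 of Stmn2, genes of immature neurons, and 3 of Omp and 0 of Stoml3. It had 19 UMIs of the dorsal gene Nqo1, or 23.2 per 10000 UMIs, where iOSN1 cells as a whole had 1.90 and the Olfr1361 neurons 31.2, and 0 of Nfix. Its Stmn4 stood at 3.66 per 10000 (3 UMIs), near the 3.83 of iOSN1 cells and below the 19.3 of the Olfr1361 neurons. As a single cell it gives no test.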

How the results depend on the processing

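The count of 51 genes differing from the cluster was 54 without the replicate block and 53 with RLE scaling, 50 with filterByExpr (15 higher, 35 lower), 53 with members inside the cluster, 35 with neurons of exactly 1 receptor, 49 without the deepest neurons and 40 with populations weighted equally. It was 33 with DESeq2, 101 without a filter (10 higher, 91 lower), 17 after thinning and 127 against all other neurons. Leaving out 1 mouse gave 20 to 46. The genes tested numbered 3919 as planned, 7406 with filterByExpr and 18308 without a filter. They numbered 2092 after thinning and 2455 to 3648 with 1 mouse left out. Against Olfr1176, Olfr591 and Olfr655, DESeq2 called 12, 16 and 4 genes, leaving out 1 mouse gave 28 to 53, 25 to 43 and 10 to 22, and the fit without the replicate block gave 61, 50 and 48. Of the 33 named genes none changed direction in any of the 508 refits that gave them a value, and 7 were called in all 16 alternatives (Stmn4, Mfge8, Mef2a, Lrrc3b, Kirrel2, Pcp4l1 and Tubb3). Tuba4a, Adam28 and Calb2 were called in the 11, 13 and 9 alternatives that gave them an adjusted p. DESeq2 and thinning gave none for these 3. With a mouse left out, Calb2 had none, Tuba4a had one only without mouse 2 and Adam28 had none without mouse 3, and Calb2 had none with populations weighted equally. The cause of the other losses was not tested. The share of neurons, the depth and second receptor differences and the compactness kept their direction, and none passed a threshold that 4 mice cannot reach. The members of mouse 1 held 24805 UMIs, so that a level of 0.403 per 10000 was 1 UMI there.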

Other observations

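The 18 further genes called against the cluster, 7 higher and 11 lower, had log2 changes from -1.31 to 0.91. Among those that fell were Mt1, a metallothionein (-0.86 ± 0.13, edgeR adjusted p = 1.9e-05), Tsc22d1, a leucine zipper protein (-0.89 ± 0.14, edgeR adjusted p = 2.5e-05), Rgs3, a regulator of G protein signalling (-1.31 ± 0.29, edgeR adjusted p = 0.0072), and Ckb, brain creatine kinase (-0.43 ± 0.10, edgeR adjusted p = 0.015), each lower in 4 of 4 mice. Among those that rose were Serpine2, a secreted protease inhibitor (0.55 ± 0.11, edgeR adjusted p = 0.0014), Dusp8, a phosphatase of MAP kinases (0.91 ± 0.22, edgeR adjusted p = 0.014), and Cdkn1a, an inhibitor of cyclin-dependent kinases (0.73 ± 0.18, edgeR adjusted p = 0.018), each higher in 4 of 4 mice. These were named after their values were seen.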
